A study of Macaca mulatta with 28 samples.

Results

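The libraries described here are the 9 with the highest and the 9 with the lowest share of mitochondrial RNA among 28 libraries, each made from a punch of 1 rhesus macaque's ventral tegmental area (VTA). Dopamine neurons that project to the forebrain have their cell bodies in this part of the midbrain, and a punch holds neurons and glia together. All animals were adult wild type males. The 17 drinkers had open access to ethanol for 12 months, followed by repeated abstinence periods of 1 month with 3 months of renewed access between them, and tissue was taken after 30 days of abstinence. Each drinker also carried a label for its drinking, which was Low, Binge, Heavy or Very Heavy, and drinkers are pooled here across these labels. The 11 controls drank no ethanol and were calorically yoked or housing controls. Of the drinkers, 8 belonged to cohort 1 and 9 to cohort 2, and of the controls 8 and 3. Drinkers and controls are numbered here within their group across both cohorts. The members were chosen by the summed counts of the 13 protein-coding mitochondrial genes (ND1 to ND6 with ND4L, COX1 to COX3, ATP6, ATP8 and CYTB) as a percent of all counts, so 18 of 28 libraries were members and 10 lay between. The high and low sets are not groups of the study, and their share is a description of how they were chosen.

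The mitochondrial genome is a small circular DNA that encodes a part of the respiratory chain, while most subunits of the chain and all proteins that copy, transcribe and process mitochondrial DNA and RNA come from the nucleus. One strand is transcribed into long precursors that are cut at transfer RNAs into messenger RNAs, and ND6 is encoded on the other strand. The messenger RNAs carry short poly(A) tails, so that kits selecting poly(A) RNA recover them. In brain the respiratory chain supplies most of the ATP that sodium pumps and synapses use.

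Among the 9 highest libraries the share had a minimum of 54.3%, a median of 57.1% and a maximum of 60.6% (57.0% ± 2.17, SD, n = 9). Among the 9 lowest the minimum was 36.4%, the median 41.6% and the maximum 43.8% (41.3% ± 2.07, SD, n = 9). The highest shares belonged to control 8 (60.6%) and control 1 (59.6%), and the lowest to control 3 (36.4%) and control 6 (40.3%). The last library inside the high set was drinker 5 with 54.3%, and the next one, drinker 16, had 53.7%. The last inside the low set was drinker 4 with 43.8%, and the next, drinker 13, had 44.1%. The borders therefore cut through a nearly continuous series of values. The mean ratio of mitochondrial to nuclear counts on the log2 scale was 0.41 ± 0.128 (SD, n = 9) in the high set and -0.51 ± 0.125 (SD, n = 9) in the low set, a difference of 0.91 that the choice of members fixed.

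**Figure D1:**
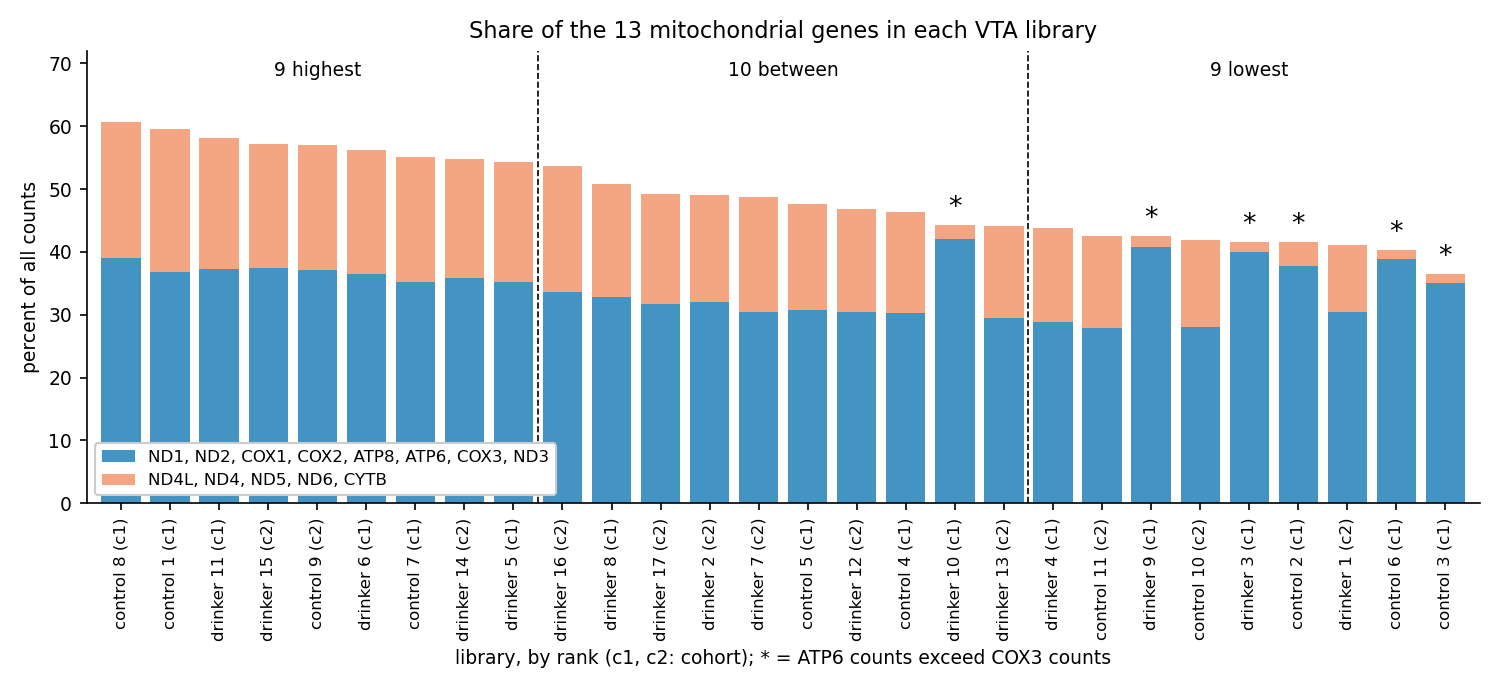
Bars give the share of the mitochondrial genes as a percent of all counts in each of the 28 libraries, ordered by share, with the genes ND1 to ND3 in blue and ND4L to CYTB in orange and dashed lines at the borders of the sets. The 6 bars marked with an asterisk have more ATP6 than COX3 counts, and in them the orange section is short.

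Some libraries stood apart in how the mitochondrial counts divided among genes, which bears on every later comparison. In 22 libraries the count of ATP6 was 0.77 to 0.94 times that of COX3, whereas in 6 libraries it was 1.35 to 1.49 times as large. The 6 were control 2, control 3, control 6, drinker 3, drinker 9 and drinker 10. They were 3 drinkers and 3 controls, and all 6 came from cohort 1. The low set held 5 of them, the high set held 0, and drinker 10 lay between. The low set thus consisted of 4 libraries with the common make-up and 5 with the other. What produced the other make-up was not tested, and the main results are given below with and without these libraries.

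ATP6 is counted here apart from ATP8, and ND4 apart from ND4L, although each pair overlaps on the genome and is read from 1 messenger RNA, so reads over the overlap could be assigned to either gene. The sequences are shown because 4 of the 13 counts behind the share border on these junctions, with the bases shared by both genes in capitals, on the plus strand of Mmul_10 (RefSeq).
ATP8 and ATP6, chrMT:8478-8603, 46 shared bases: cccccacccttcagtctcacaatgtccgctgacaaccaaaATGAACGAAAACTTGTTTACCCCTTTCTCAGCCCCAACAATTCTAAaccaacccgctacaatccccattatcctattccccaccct
ND4L and ND4, chrMT:10711-10797, 7 shared bases: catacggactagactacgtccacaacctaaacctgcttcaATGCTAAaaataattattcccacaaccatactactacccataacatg

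In both stretches the capitals begin with ATG, the start codon of the second gene of the pair, and end with TAA, the stop codon of the first.

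CYTB is the cytochrome b subunit of complex III. It took 14.1% to 15.2% of the mitochondrial counts in the high set and 0.00431% to 3.16% in the 6 libraries that stood apart. In 4 of these (control 3, control 6, drinker 3 and drinker 9) it was at or below 0.0200%, drinker 10 had 0.0664%, and control 2 was the exception with 3.16%. Of the 4 low libraries with the common make-up, 3 had 13.7% to 14.3%, and drinker 1 had 3.11%. CYTB lies at the end of the gene order, at chrMT:14741-15881.

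The NADH dehydrogenase (complex I) subunits at the same end of the order were low in the same libraries. ND4L, at chrMT:10461-10757, took 1.42% to 1.72% of the mitochondrial counts in the high set and at most 0.0136% in the 6. ND4, at chrMT:10751-12128, took 15.3% to 18.4% in the high set, 15.0% to 19.0% in the 4 low libraries of common make-up, and 1.87% to 3.97% in the 6. ND5, at chrMT:12328-14139, was less different, with 2.51% to 3.60% in the high set and 1.82% to 2.46% in the 6. ND6, the gene of the other strand at chrMT:14140-14667, had 0.0541% to 0.118% in the high set and at most 0.000588% in the 6, and drinker 1 of the low set had 7.97e-05%. Drinker 1 thus resembled the 6 in ND6 and in part in CYTB, but not in ND4 or ND4L.

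Genes nearer the start of the order took larger percentages in the 6. ATP6, a membrane subunit of ATP synthase at chrMT:8518-9198, took 9.31% to 10.7% of the mitochondrial counts in the high set, 9.98% to 11.2% in the 4 low libraries of common make-up and 22.9% to 24.5% in the 6. ND1, at chrMT:3259-4213, took 0.789% to 2.76% in the high set and 6.24% to 8.07% in the 6. COX1 and COX3, core subunits of cytochrome c oxidase, took 16.1% to 20.2% and 11.0% to 12.1% in the high set and 21.5% to 26.5% and 15.6% to 17.1% in the 6. ND2 and ATP8 were the exceptions. ND2 took 8.99% to 10.5% in the high set and 5.97% to 9.26% in the 6, and ATP8, which overlaps ATP6, took 2.13% to 2.59% and 0.590% to 1.67% in the 6.

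**Figure D2:**
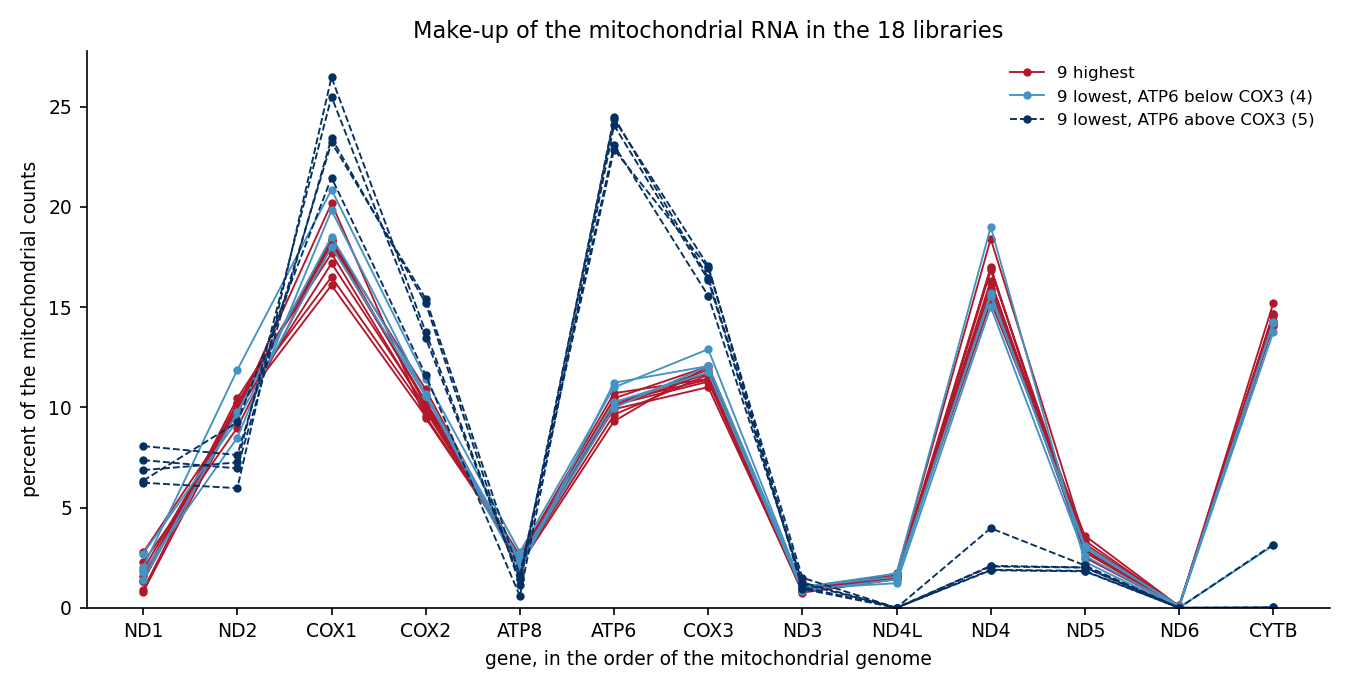
Each line is 1 of the 18 libraries, and the y axis gives each gene's percent of the mitochondrial counts, with genes in genome order on the x axis. The 9 high libraries (red) and the 4 low libraries of common make-up (light blue) run close together apart from the CYTB value of 3.11% in drinker 1, whereas the other 5 low libraries (dashed) lie higher at ATP6 and lower at ND4 and CYTB.

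Since percentages of a total trade off against each other, the shares of all counts were also summed over the 2 ends of the gene order. The 8 genes from ND1 to ND3 took 36.7% ± 1.20 of all counts in the high set (SD, n = 9), 28.8% ± 1.13 in the 4 low libraries of common make-up and 38.5% ± 2.20 in the 5 low libraries that stood apart. The ranges were 35.1% to 39.0%, 27.9% to 30.4% and 35.1% to 40.7%. For these 8 genes the 5 libraries therefore overlapped the high set rather than the rest of the low set. The 5 genes from ND4L to CYTB took 20.3% ± 1.24 in the high set (SD, n = 9), 13.5% ± 1.92 in the 4 and 2.03% ± 1.03 in the 5. The 5 libraries were in the low set by their counts for the 5 genes from ND4L to CYTB, and the other 4 had less of both sections than the high set. These sums enter the share that chose the libraries and are given with no test.

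The division of the mitochondrial counts among the genes is given between the sets as a description, since the same counts make up the share and the low set holds 5 libraries by their counts for ND4L to CYTB. CYTB took 14.4% ± 0.362 against 5.39% ± 6.63 of the mitochondrial counts, ATP6 10.1% ± 0.416 against 17.9% ± 6.97, and ND4 16.5% ± 0.911 against 8.58% ± 7.46 (SD, n = 9 each). The low set mixes the 2 kinds of library, which its SDs show. In the 4 low libraries of common make-up COX2 took 10.8% ± 0.406 beside 10.04% ± 0.432 in the high set, COX3 12.2% ± 0.494 beside 11.6% ± 0.358, and ND4 16.3% ± 1.81 beside 16.5% ± 0.911. As log2 ratios to the geometric mean of the 13 genes, ND2, ATP8 and ND5 were lower in the high set than in the low set instead of higher.

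The share was set against drinking and cohort, which were not used in choosing the libraries. The share was 49.2% ± 5.73 in the drinkers (SD, n = 17) and 48.1% ± 8.53 in the controls (SD, n = 11), which differ by 1.09 percentage points (permutation p = 0.686). The difference was 0.523 points within cohort 1 (exact permutation p = 0.895) and 2.21 points within cohort 2 (exact permutation p = 0.6), and without the 6 libraries it was -0.779 points (exact permutation p = 0.779). Cohort 1 had 48.7% ± 7.72 (SD, n = 16) and cohort 2 had 48.8% ± 5.79 (SD, n = 12), a difference of -0.135 points (permutation p = 0.965). Without the 6 libraries, all of them from cohort 1, the difference was 4.41 points with cohort 1 the higher (permutation p = 0.0919). The high set held 5 drinkers and 4 controls and the low set 4 drinkers and 5 controls, and each had 6 animals of cohort 1 and 3 of cohort 2. None of these differences was larger than the spread between animals. In the high set drinkers 11, 14 and 15 were labelled Very Heavy and drinkers 5 and 6 Heavy. In the low set drinker 9 was labelled Very Heavy, drinkers 3 and 4 Heavy and drinker 1 Binge. Whether the share differed between these drinking labels was not tested.

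Libraries of the high set held 16322715 to 27338712 counts with a median of 25370423, and those of the low set 12303976 to 22738851 with a median of 20601881. Counts of nuclear transcripts alone were 6597585 to 12261263 (median 10764692) and 7184813 to 13469220 (median 12242920), so the nuclear depth of the sets overlapped. In the high set 11152 to 12367 nuclear transcripts had a count and in the low set 11142 to 12683. Levels below are CPM, the counts of a transcript scaled to a common total of nuclear counts (counts per 1e6), with the mitochondrial rows left out of the total. Markers of the VTA were present but uneven. TH, which makes the dopamine precursor, lay at 11.0 to 1268 CPM in the high set and 11.4 to 1400 CPM in the low set, and SLC6A3, the dopamine transporter, at 12.6 to 1646 and 16.5 to 1572 CPM. MBP, a protein of myelin, lay at 4435 to 7777 and 3742 to 7511 CPM. Punches thus differed widely in dopamine neuron markers in both sets, and in bulk tissue fewer cells of a type and less RNA per cell cannot be told apart.

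Nuclear transcripts were then compared between the 9 highest and the 9 lowest libraries by edgeR's quasi-likelihood test with Benjamini-Hochberg adjustment. The rule did not use their counts, apart from their place in the denominator of the share. Of 13251 transcripts tested, 0 passed an adjusted p of 0.05 (0%), and the lowest adjusted p was 0.519. At an unadjusted p under 0.05 there were 817 transcripts (6.17%), of which 369 (2.78%) were higher and 448 (3.38%) lower in the high set. No transcript had ranges that did not overlap between the sets (0%). With the share as a continuous term over all 28 libraries, edgeR called 12 of 13756 (0.0872%), of which 8 were listed at 0 in 21 to 25 of the 28. DESeq2's Wald test on the same 18 libraries called 18 (0.136%), and 10 of those were transcripts listed at 0 in 13 to 15 of the 18 libraries. Without the 6 libraries that stood apart, edgeR called 1 of 12824 (0.0078%), and at an unadjusted p under 0.05 there were 789 (6.15%), of which 323 were lower (2.52%) and the others higher (3.63%). The 1 called was HGSNAT, a lysosomal acetyltransferase named here after its values were seen. HGSNAT was listed at 0 in all 9 high libraries, in 4 of the 9 low libraries and in 6 of the 10 between, and reached 41.1 CPM in control 10. It passed the count filter only through the low libraries, in a fit chosen after values were seen, so these are given as levels alone.

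The transcripts with the lowest p are described by their levels, and none passed the adjusted threshold by edgeR. PEA15, a death effector domain protein that binds ERK, had a minimum of 4985, a median of 5563 and a maximum of 6270 CPM in the high set and 3827, 4208 and 5008 CPM in the low set. The sets overlapped only where drinker 4, the low library nearest the border, stood at 5008 CPM. The log2 fold change of PEA15 was 0.34 (SE 0.069, unadjusted edgeR p = 8.835e-05), and DESeq2 called it with an adjusted p of 3.796e-05. When the libraries were split instead on the summed share of the 8 genes from ND1 to ND3, the log2 fold change was -0.0037. The gene lies at chr1:90724772-90732985.

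CD22, a sialic acid-binding lectin known from B cells and also present in primate oligodendrocytes, lay at 1576, 1792 and 2301 CPM (minimum, median, maximum) in the high set and at 1019, 1374 and 1576 CPM in the low set. Its log2 fold change was 0.42 (SE 0.085, unadjusted edgeR p = 0.000107). ATP1B2, the β2 subunit of the sodium pump and a product of glia, lay at 4198, 4994 and 6116 CPM against 3257, 3634 and 4933 CPM, with a log2 fold change of 0.39 (SE 0.086). ARHGDIB, an inhibitor of small GTPases, lay at 69.5, 83.3 and 97.8 CPM against 46.3, 66.3 and 71.5 CPM. PFN1, the actin-binding profilin, lay at 393.0, 419.6 and 492.4 CPM against 277.8, 338.6 and 433.6 CPM, and its log2 fold change of 0.32 (SE 0.078) was 0.51 without the 6 libraries. All 5 were among the DESeq2 calls.

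In the other direction RUBCN, a brake on autophagy, lay at 68.3, 82.8 and 112.0 CPM in the high set and 88.7, 140.3 and 200.9 CPM in the low set, a log2 fold change of -0.68 (SE 0.16, unadjusted edgeR p = 0.000417). WDR11, a protein of vesicle traffic, lay at 19.0, 30.8 and 36.9 CPM against 31.5, 38.3 and 50.8 CPM, with a log2 fold change of -0.49 (SE 0.12). RNF112, a RING finger protein of brain, lay at 43.6, 59.5 and 72.2 CPM against 63.8, 75.3 and 85.8 CPM. CTPS1, which makes CTP for nucleotide synthesis, lay at 50.1, 56.5 and 77.0 CPM against 65.4, 82.7 and 101.1 CPM. C8H8orf34 was low in both sets, with at most 3.42 CPM in the high set and 6.74 in the low set. Each of these 5 had overlapping sets and the same sign of difference without the 6 libraries, and RUBCN and C8H8orf34 were among the DESeq2 calls. On the split by the 8 genes from ND1 to ND3 the log2 fold changes were -0.041 for RUBCN, -0.053 for CTPS1 and -0.10 for C8H8orf34, whose value between the sets was -1.15. ARHGDIB likewise had 0.033 on that split, beside 0.38 between the sets. More of the difference remained there for CD22 (0.28), ATP1B2 (0.27), PFN1 (0.28), WDR11 (-0.30) and RNF112 (-0.24).

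**Figure D3:**
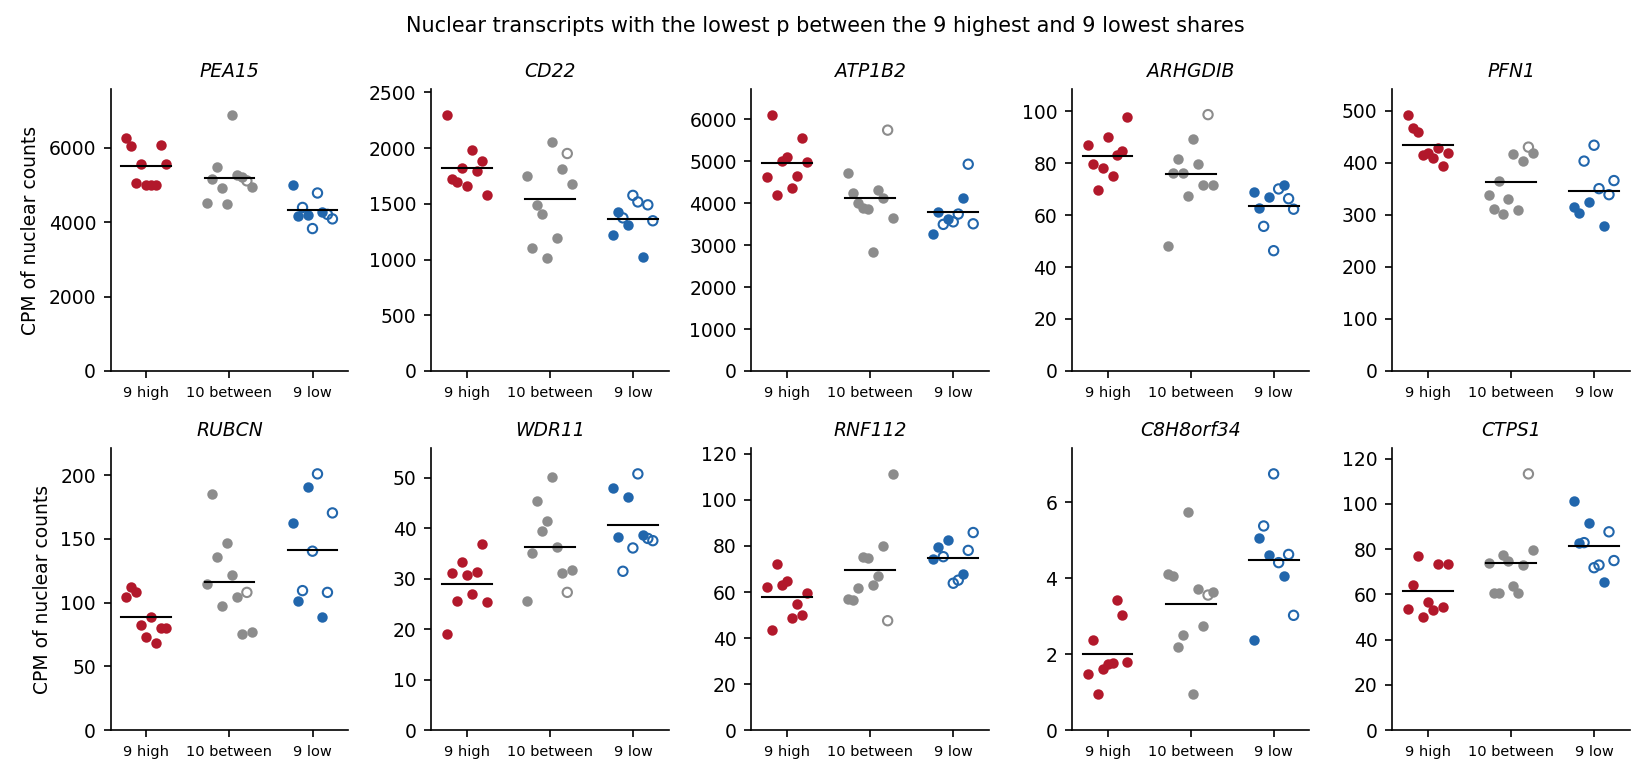
CPM of nuclear counts (y axis, from 0) for the 10 transcripts with the lowest p, in the 9 high libraries, the 10 between and the 9 low libraries. Points are libraries, open where the library has more ATP6 than COX3, and bars are means. The high and low points of every transcript overlap or touch, and for PEA15 the 10 libraries between span 4485 to 6890 CPM, wider than the high set.

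Nuclear-encoded subunits of the respiratory chain are the partners of the mitochondrial genes. Of 80 listed subunits of complexes I to V, 66 were in the table and 65 were tested, and 0 had an unadjusted edgeR p under 0.05 in either direction. Their median log2 fold change was -0.0047, beside -0.013 over all transcripts. The median SE was 0.12 for a subunit and 0.27 over all transcripts, and 61 of the 65 were expressed at 10 CPM or more. Within 0.25 of 0 lay 60 of 65 (92.3%), compared with 59.1% of all transcripts, a comparison not matched for level or precision. Those outside included ATP5F1C (0.45), NDUFA10 (0.33), ATP5ME (0.43) and ATP5PF (1.41), the last being listed at 0 in 11 libraries. Summed over the list, the nuclear subunits took 12710, 14070 and 16830 CPM (minimum, median, maximum) in the high set and 11840, 14280 and 19930 CPM in the low set. The 19930 CPM was that of drinker 9, 1 of the 6 libraries, and the next highest low library was control 10 with 15770 CPM. The sums overlapped, next to a difference of 0.91 in the log2 ratio of mitochondrial to nuclear counts.

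By complex, 0 of 30 tested subunits of complex I, 0 of 4 of complex II, 0 of 6 of complex III, 0 of 10 of complex IV and 0 of 15 of complex V had an unadjusted p under 0.05, with median log2 fold changes from -0.046 (complex III) to 0.018 (complex II). Complex II, which the nucleus encodes entirely, was not set off from the rest. NDUFA2 of complex I lay at 79.6 to 120.0 CPM in the high set and 76.6 to 202.3 in the low set, with a log2 fold change of -0.24 (SE 0.15). The 202.3 CPM was that of drinker 9, and the log2 fold change of NDUFA2 was -0.027 without the 6 libraries and 0.020 on the split by ND1 to ND3. ATP5MC2, a membrane ring subunit of ATP synthase, had the lowest p of the list among those named, with 357.9 to 474.8 CPM against 338.5 to 478.3 CPM and a log2 fold change of 0.15 (SE 0.072, unadjusted edgeR p = 0.0543). Without the 6 libraries, 6 of 65 subunits had an unadjusted p under 0.05, all 6 higher in the high set, and the median was 0.087, beside 6.15% and -0.010 over all transcripts.

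Proteins that copy and transcribe mitochondrial DNA gave no member under an unadjusted p of 0.05 among 15 tested (median log2 fold change 0.032). TFAM, which packages mitochondrial DNA and starts its transcription, lay at 40.5 to 55.7 CPM in the high set and 33.4 to 46.8 CPM in the low set, a log2 fold change of 0.14 (SE 0.088). Among 18 proteins of mitochondrial RNA processing and decay, 1 was higher and 0 lower, with a median of -0.10. The 1 was REXO2, a nuclease that degrades short RNA, with 65.2 to 95.3 CPM against 51.0 to 86.6 CPM and a log2 fold change of 0.26 (SE 0.10, unadjusted edgeR p = 0.0207). SUPV3L1, the helicase of the mitochondrial RNA-degrading complex, had a log2 fold change of -0.20 (SE 0.10). Of 67 mitochondrial ribosomal proteins 1 was higher and 0 lower (median 0.0036), namely MRPL41 with 0.59 (SE 0.20, unadjusted edgeR p = 0.00962).

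Import proteins (18 tested) and enzymes of the tricarboxylic acid cycle (17 tested) had 0 members under an unadjusted p of 0.05, with medians of -0.052 and 0.014. Regulators of mitochondrial biogenesis, dynamics and mitophagy had 1 of 17 higher and 1 lower. The first was MFN1, an outer membrane fusion protein, with 33.6 to 59.6 CPM against 23.0 to 53.4 CPM (log2 fold change 0.37, SE 0.16). The second was NRF1, whose listed transcript was at 0 in 14 of the 18 libraries, 8 of them in the high set, and nothing is read from its direction. Glycolytic enzymes had 0 of 15 in either direction (median -0.039). These counts of 0 to 2 transcripts per list stand beside 6.17% over all transcripts. Without the 6 libraries each of these lists again had 0 to 2 members under 0.05, and REXO2 at 0.27 (unadjusted edgeR p = 0.0922) and MRPL41 at 0.54 (unadjusted edgeR p = 0.0702) had like log2 fold changes with p past 0.05, while NRF1 was not tested there.

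**Figure D4:**
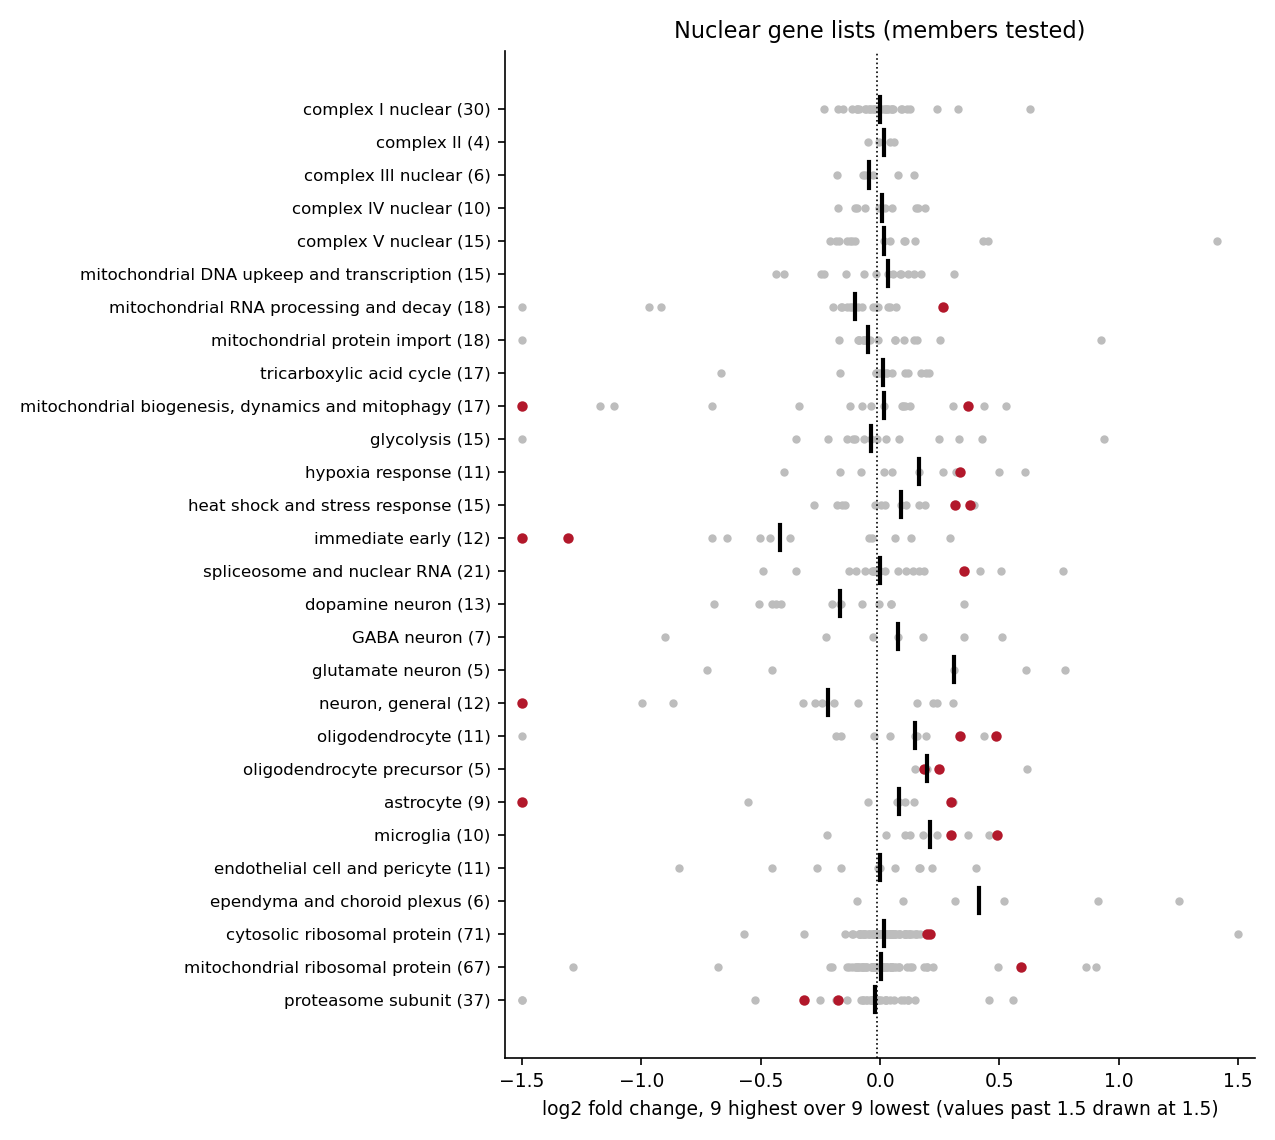
Log2 fold changes between the 9 highest and 9 lowest libraries (x axis) for the members of each list, with the number tested in parentheses. Points are transcripts, red where the unadjusted edgeR p was under 0.05, black bars are list medians, the dotted line is the median of all transcripts, and 11 values past 1.5 are drawn at the edge. The medians of the mitochondrial lists lie between -0.10 and 0.032, and that of the immediate early genes is -0.42.

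Immediate early genes are the transcripts switched on within minutes of neuronal activity. Of 12 tested, 0 were higher and 2 lower at an unadjusted p under 0.05, beside 3.38% lower over all transcripts, and the median log2 fold change was -0.42. FOSB lay at 3.86, 7.08 and 19.6 CPM in the high set and at 3.58, 19.4 and 85.6 CPM in the low set, a log2 fold change of -2.11 (SE 0.58, unadjusted edgeR p = 0.00188). The low values were carried unevenly, with 3.58 CPM in control 2 and 5.06 in control 6 next to 85.6 in control 11 and 83.2 in control 10. Drinker 17, between the sets, had 195 CPM. NPAS4, a neuronal activity-dependent transcription factor, had a log2 fold change of -1.31 (SE 0.49, unadjusted edgeR p = 0.0147). On the split by ND1 to ND3 the log2 fold changes were -0.59 for FOSB and -0.95 for NPAS4. With the 6 libraries of other make-up left out, 3 of 12 were lower, beside 2.52% over all transcripts, and the median was -0.21.

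Over all transcripts 2.78% were higher and 3.38% lower, and 3.63% and 2.52% without the 6 libraries. Heat shock and stress genes had 2 of 15 higher and 0 lower, with a median of 0.088. These were 2 small heat shock proteins, HSPB1 with 107.5 to 231.3 CPM against 81.0 to 168.6 CPM (log2 fold change 0.38, SE 0.16) and CRYAB with 1558 to 3035 CPM against 1371 to 2850 CPM (0.32, SE 0.14). With the 6 set aside, 4 of 15 were higher and 1 lower with a median of 0.22, HSPB1 at 0.52, CRYAB at 0.59 and the lower one, HSPA8, at -0.36. Hypoxia genes had 1 of 11 higher and 0 lower with a median of 0.16. The 1 was P4HA1, a collagen prolyl hydroxylase (0.33, SE 0.14), and the adrenomedullin gene ADM had 0.61 (SE 0.30, unadjusted edgeR p = 0.0539). In drinkers alone the slopes on the share of ADM (-0.015) and HSPB1 (-0.020) were negative, and in the 10 libraries between the sets that of ADM was -1.60 (SE 0.78). In the 4 low and 9 high libraries of common make-up, 0 of 11 were higher and 1 lower, HIF1A at -0.91, with a median of 0.17. Of 71 cytosolic ribosomal proteins 2 were higher and 0 lower (median 0.015), of 37 proteasome subunits 0 were higher and 2 lower (median -0.022), and of 21 spliceosome and nuclear RNA proteins 1 was higher and 0 lower (median -0.00025). The last was HNRNPA1, with 0.35 (SE 0.10, unadjusted edgeR p = 0.00311). With the 6 removed, 8 of 70 cytosolic ribosomal proteins were higher and 1 lower (median 0.10), 0 of 37 proteasome subunits were higher and 1 lower (median -0.0095), and 3 of 21 spliceosome and nuclear RNA proteins were higher and 0 lower (median 0.099). On the share over the 22 libraries of common make-up, 3 of 71 slopes of cytosolic ribosomal proteins were positive and 4 negative at an unadjusted p under 0.05. These counts lie near the 4.42% positive and 4.72% negative over all transcripts, and the median slope was -0.050.

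Markers of glia were compared because they show the cell make-up of the punches. Oligodendrocyte markers had 2 of 11 higher and 0 lower, MOBP with 0.48 (SE 0.18) and MBP with 0.33 (SE 0.15), both proteins of myelin, and the list median was 0.15, beside 2.78% higher over all transcripts. Their summed level was 27790 to 42180 CPM in the high set and 24930 to 42190 CPM in the low set. Oligodendrocyte precursor markers had 2 of 5 higher, the transcription factors OLIG2 (0.25, SE 0.088) and SOX10 (0.19, SE 0.088), and summed levels of 1145 to 1614 against 1087 to 1509 CPM. Microglial markers had 2 of 10 higher, AIF1 (0.49, SE 0.19) and the complement component C1QB (0.30, SE 0.14), with sums of 741.1 to 1184 against 619.8 to 1067 CPM. After leaving out the 6, 0 of 10 microglial markers were under 0.05, with AIF1 at 0.24 and C1QB at 0.23, while 3 of 11 oligodendrocyte markers were higher, MOBP with 0.96, MBP with 0.55 and UGT8 with 0.24, and 2 of 4 precursor markers, beside 3.63% over all transcripts. On the split by ND1 to ND3 the log2 fold changes were 0.019 for AIF1, 0.044 for C1QB, 0.083 for MBP and 0.082 for SOX10. MOBP had 0.45 and OLIG2 0.14 on that split. For all 3 lists the summed levels of the sets overlapped.

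Astrocyte markers had 1 of 9 higher and 1 lower, beside 2.78% and 3.38% over all transcripts. GLUL, glutamine synthetase, lay at 6415, 7408 and 8130 CPM in the high set and 4928, 6251 and 7009 CPM in the low set (log2 fold change 0.30, SE 0.080, unadjusted edgeR p = 0.00153), and it was also a DESeq2 call. The other was AQP4, listed at 0 in 13 of 18 libraries, 8 of them in the high set, and nothing is read from its direction. The listed transcript of GFAP, the defining filament protein of astrocytes, was low, at 3.16 to 18.4 CPM against 0.807 to 86.8 CPM. Summed astrocyte markers were 9034, 10190 and 11290 CPM in the high set and 7390, 8644 and 9362 CPM in the low set, with GLUL the bulk of the sum. In the fit without the 6, 1 of 8 astrocyte markers was higher and 0 lower, beside 3.63% and 2.52% over all transcripts. The 1 was GLUL with 0.35, and the list median turned to -0.19. With the mean of the oligodendrocyte markers as a covariate 0 transcripts passed the adjusted threshold between the sets, as without it, and 877 had an unadjusted edgeR p under 0.05 beside 817. The part of the other glial lists was not tested.

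Neuronal lists showed wide spreads. Shares over all transcripts at an unadjusted p under 0.05 were 2.78% higher and 3.38% lower, and without the 6 libraries 3.63% and 2.52%. Dopamine neuron markers had 0 of 13 in either direction with a median of -0.17 and a median SE of 0.98. With their mean as a covariate 0 transcripts passed between the sets, and 861 had an unadjusted edgeR p under 0.05. Their sum was 93.9, 537.6 and 3363 CPM in the high set and 90.3, 245.7 and 3391 CPM in the low set, nearly the same range. Markers of GABA neurons (0 of 7), glutamate neurons (0 of 5), endothelial cells and pericytes (0 of 11), and ependyma and choroid plexus (0 of 6, median 0.41) had no member under an unadjusted p of 0.05. Without the 6 libraries GATA3, a transcription factor of GABA neurons, was at 0.94 (unadjusted edgeR p = 0.0100) beside 0.35 with all 18, the 1 of 7 in its list that was higher. General neuronal markers had 0 of 12 higher and 1 lower, SYT1, whose listed transcript was at 0 in 15 of 18 libraries, all 9 of the high set among them. SYT1 passed the count filter only through 3 low libraries, and nothing is read from it. SNAP25, a protein of synaptic vesicle fusion, lay at 781.7 to 2349 CPM in the high set and 1284 to 2915 CPM in the low set. Of 8 blood genes 4 were in the table, and 0 of these passed the count filter. Without the 6 libraries the median of the dopamine neuron list was -0.66 with 0 of 13 under 0.05, and MAP2 (-0.35) was the 1 general neuronal marker of 11 that was lower.

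To describe the share without the libraries of other make-up, each nuclear transcript was fitted against the share in the 22 remaining libraries, which include the 9 high libraries and 4 of the low ones and so are no independent repeat. Slopes are log2 changes per 10 percentage points of share. edgeR's quasi-likelihood test with Benjamini-Hochberg adjustment called 21 of 13485 transcripts (0.156%). Of the 21, 11 were listed at 0 in 16 to 19 of the 22 libraries. The other 10 had counts in every library, 8 with a positive and 2 with a negative slope, and these were named after their values were seen. At an unadjusted p under 0.05 there were 1232 (9.14%), with 596 positive (4.42%) and 636 negative (4.72%) slopes.

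COX6C, a nuclear-encoded subunit of cytochrome c oxidase, rose by 0.28 per 10 points (SE 0.046, adjusted edgeR p = 0.00708). It lay at 459.2, 541.5 and 638.1 CPM in the high set and at 363.2 to 442.3 CPM in the 4 low libraries of common make-up, with no overlap. In that comparison of 9 with 4 libraries, 78 of 12824 transcripts (0.608%) did not overlap, 40 of them higher (0.312%) and 38 lower (0.296%) in the high set, and COX6C was chosen by its slope over libraries that include these 13. Among the 6 libraries left out, drinker 9 had 702.1, drinker 3 had 674.5 and drinker 10 had 639.0 CPM, above all 9 high libraries. Control 6 (519.8 CPM) and control 3 (462.7 CPM) lay within the range of the high set, and control 2 (402.9 CPM) lay below it. With cohort and drinking group as covariates the slope of COX6C was 0.27 and no longer passed the adjusted threshold, and in these 22 libraries the share of cohort 1 exceeded that of cohort 2 by 4.41 points. With all 18 libraries its log2 fold change was 0.15 (SE 0.12, unadjusted edgeR p = 0.22). RWDD1, a small RWD domain protein, rose by 0.29 per 10 points (SE 0.041, adjusted edgeR p = 0.00555) and lay at 134.9 to 173.1 CPM in the high set. Of the 6 libraries left out, drinker 9 exceeded that range with 188.2 CPM. Drinker 3 (171.5), drinker 10 (164.9), control 2 (143.6) and control 6 (139.3) lay inside it, and control 3 (115.4) lay below it.

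POMP, the assembly factor of the proteasome (0.21), BNIP3L, a mitophagy receptor (0.22), CHMP2B of the membrane-cutting ESCRT-III complex (0.24), TOB1, an antiproliferative adaptor of mRNA deadenylation (0.29), PFN1 (0.29) and GPM6B, a membrane glycoprotein (0.26) also rose with the share, with adjusted edgeR p from 0.0406 to 0.0445. KCNA6, a voltage-gated potassium channel, fell by 0.69 per 10 points (SE 0.13, adjusted edgeR p = 0.0196), and IP6K1, an inositol hexakisphosphate kinase, fell by 0.24 (SE 0.046, adjusted edgeR p = 0.0386). KCNA6 lay at 7.89 to 12.5 CPM in the high set and at 17.2 to 39.2 CPM in the 4 low libraries of common make-up, where the highest value was that of drinker 1. Of the 6 libraries left out, control 2, drinker 3 and drinker 9 had 10.01 to 11.98 CPM, within the range of the high set, and control 6, drinker 10 and control 3 had 15.4, 16.9 and 19.99 CPM, above it. These calls depended on the fit. limma-voom called 2 transcripts, the filter of at least 10 counts in every library gave 3, 2 positive and 1 negative, and cohort and drinking group as covariates gave 4, 1 positive and 3 negative, beside 11 positive and 10 negative among the 21. Leaving out 1 library gave 9 to 26, with 9 without drinker 13, 11 without control 1, drinker 1 or drinker 2, 12 without control 8 or drinker 12, and 13 without control 4 or drinker 15.

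**Figure D5:**
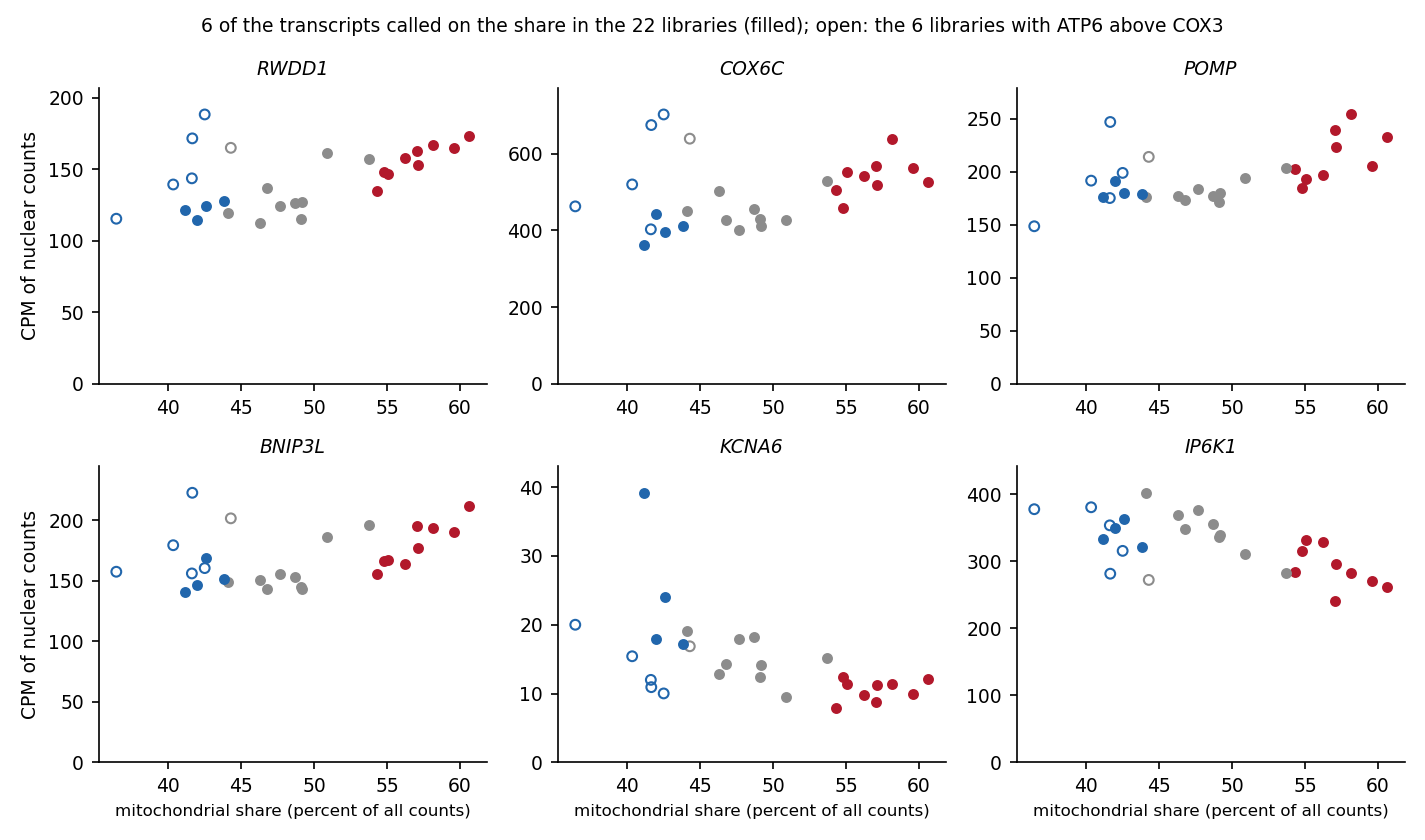
CPM of nuclear counts (y axis, from 0) against the mitochondrial share (x axis, percent of all counts) for 6 of the 10 called transcripts with counts in every library. Filled points are the 22 libraries of the fit (red high, grey between, blue low) and open points the 6 libraries with more ATP6 than COX3. COX6C and RWDD1 rise with the share among filled points, and for COX6C the open points of drinkers 3, 9 and 10 lie above the highest filled point at 638.1 CPM.

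Among the 65 nuclear-encoded subunits of complexes I to V, the slope over the 22 libraries had an unadjusted p under 0.05 in 10, with 9 positive and 1 negative, beside 9.14% of all transcripts, and the median slope was 0.023 beside -0.0091 over all transcripts. COX6C was the 1 that passed the adjusted threshold. The other positive ones were UQCRB of complex III (0.24, SE 0.069), COX5B (0.20), the complex I subunits NDUFB2 (0.27), NDUFB10 (0.13), NDUFS6 (0.21) and NDUFV2 (0.32), and ATP5PB (0.15) and ATP5IF1 (0.20) of ATP synthase, and the negative one was ATP5MC1 (-0.30). Over all transcripts 4.42% of slopes were positive and 4.72% negative at this p. Heat shock genes had 5 of 15 positive and 1 negative (median 0.17).

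The 10 libraries between the sets share no library with either. Of 12487 transcripts fitted against the share in them, 0 passed the adjusted threshold (0%) and 1052 had an unadjusted p under 0.05 (8.42%). Of the transcripts higher in the high set at an unadjusted p under 0.05, 342 could be fitted there, and 201 (58.8%) had a positive slope, compared with 49.9% of all transcripts. Of 391 that were lower, 172 (44%) had a negative and 219 (56%) a positive slope. PEA15 had a slope of -0.15 (SE 0.22), CD22 -0.33 (SE 0.34), ARHGDIB -0.62 (SE 0.27) and PFN1 -0.44 (SE 0.18) in these 10, opposite in sign to their differences between the sets. RUBCN had 0.83 (SE 0.38), also opposite, and RNF112 (-0.55, SE 0.34) and CTPS1 (-0.46, SE 0.27) had the same sign. The 10 libraries include drinker 10, which has the other make-up and the highest ARHGDIB (98.7 CPM) and PFN1 (430.0 CPM) among them. Without it 0 of 12338 transcripts passed (0%), 227 of 342 (66.4%) of those higher in the high set had a positive slope beside 49.8% of all transcripts, and 184 of 388 (47.4%) of those lower had a negative slope beside 50.2%. The slopes of ARHGDIB and PFN1 were then -0.47 (SE 0.30) and -0.35 (SE 0.20). Of the 10 transcripts with the lowest p between the sets, 2 had the same sign in the 10 libraries and 4 in the 9, with RUBCN opposite at 1.04 (SE 0.44) and RNF112 in the same direction at -0.88 (SE 0.24).

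Whether the high and low sets differed to another extent in each cohort or in drinkers and controls was tested as an interaction by edgeR. Between cohorts 1 transcript passed (0.00755%), CCNB1, a mitotic cyclin with an adjusted p of 0.00135, and 323 (2.44%) had an unadjusted p under 0.05. CCNB1 was at 0 in all 3 high libraries of cohort 2 and at 2.20 to 7.22 CPM in the other 15, so the call rests on 3 libraries and low counts. Between drinkers and controls 0 passed, with 745 (5.62%) at an unadjusted p under 0.05.

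GC content and length of the transcript, which can follow library preparation, were known for 96.5% of transcripts. The median log2 fold change between the sets was -0.0041, -0.021, -0.024, -0.025 and 0.017 over 5 equal bins from the lowest to the highest GC content, and 0.011 in the shortest and -0.053 in the longest of 5 bins of length. Subtracting a smooth trend on GC content from each library left the count between the sets at 0 and moved the calls on the share in the 22 libraries from 21 to 58.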

How the data were processed

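Reads were paired-end, from a poly(A) mRNA kit (Nugen Universal Plus mRNA). The authors trimmed them with Trim Galore 0.6.7, quantified them with Salmon 1.9.0 against Mmul_10 and deposited estimated counts, not normalized, for 16886 entries with 1 transcript per gene symbol, so counts of other transcripts of a gene are outside its value. The 1 entry without a symbol (1.16e-05 percent of counts) was left out. Groups come from the labels and cohorts from the methods and source data of the study. Estimated counts were rounded. The 13 mitochondrial rows were removed before library sizes, and a transcript was tested where 3 or more fitted libraries had 5 or more counts.

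Tests were edgeR 4.0.16 (TMM, quasi-likelihood, Benjamini-Hochberg adjustment at 0.05), with DESeq2 1.42.0 and limma 3.58.1 voom as alternatives, in R 4.3.3, and permutation tests in scipy 1.17.1 (100000 permutations where not exact), all two-sided. Standard errors were obtained as |log2 fold change| / √F. p-values set a difference or slope against the variation between libraries, each from a different animal, so animal, punch and preparation are not separated. Counts of the most similar pair of libraries were equal and above 0 in 1.22% of transcripts, and no library was treated as a repeat of another.

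The members, gene lists and tests were chosen with earlier results of these data known. The named transcripts are the 5 lowest p in each direction with counts in all 18 libraries and a mean of at least 1 CPM, up to 2 per list where none passed, the 13 mitochondrial genes and 6 markers. The 6 libraries that stand apart, and every fit without them, were chosen after their values were seen. Folds are given for transcripts at 0 in at most 3 libraries, apart from the respiratory chain subunits outside the stated range. Alternatives were other tests, normalizations, filters and covariates, single cohorts or drinkers alone, 7 libraries a set and leaving out single libraries. Gene coordinates and sequences are from RefSeq (Mmul_10). Values of 1 marker and 1 respiratory chain subunit are not reported here.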

Additional observations from a re-analysis of the deposited data

Results flagged for a closer look

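Libraries far from the rest of their set were looked for in 192 groups by Dixon's test at its 95% critical value, and 26 were found. The groups share libraries, and some are at 0 in all but 1 library. The 26 are therefore not set against a rate expected by chance. Control 3 stood below the other low libraries in the share itself (36.43% of all counts). Drinker 5 was the lowest of the high set in ND2 (8.995% of the mitochondrial counts). Control 11 was the highest of the low set in ND6 (0.1096%), a value inside the high set's range of 0.0541% to 0.118%. The low set mixes libraries of common and other make-up, so nothing is read from that flag.

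Drinker 3 stood apart in the low set for SLC17A6, the vesicular glutamate transporter (733.5 CPM), SYT1 (20.63 CPM), CFAP126 (0.8026 CPM), BNIP3L (222.6 CPM), CHMP2B (188.4 CPM) and TOB1 (174.8 CPM). Drinker 4 stood apart in the same set for ACTA2, an actin of smooth muscle (107.9 CPM), TTR, a product of choroid plexus (664.4 CPM), GFAP (86.79 CPM) and PSMD9 (83.32 CPM). Drinker 9 stood apart for COX6B1 (401.2 CPM) and ATP5MC2 (478.3 CPM), both nuclear-encoded respiratory chain subunits, and drinker 1 for KCNA6 (39.16 CPM).

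In the high set drinker 14 stood apart for TTR (1387 CPM), CFAP126 (2.434 CPM) and NRF1 (0.6816 CPM), control 8 for ACTA2 (84.48 CPM) and TOB1 (204.5 CPM), and control 7 for MFN1 (33.63 CPM, the lowest), NPAS4 (6.258 CPM) and PFKM (3.671 CPM). Drinker 11 was highest in MTERF2 (37.44 CPM) and drinker 15 in AQP4 (0.3211 CPM). The effect of the sets on CCNB1 differed between cohorts by edgeR's interaction test, with an adjusted p of 0.001353.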

How the results depend on the processing

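The count of nuclear transcripts called between the 9 highest and 9 lowest libraries (0) was 18 by DESeq2, 12 with the share as a continuous term over 28 libraries, 6 with cohort and drinking group added to that, 1 without the 6 libraries of other make-up (chosen after seeing the data, as was the next) and 1 when the sets were split on the 8 genes from ND1 to ND3. It was 0 under the other settings and 0 to 0 without single libraries. Calls on the share in the 22 libraries (21) were 153 by DESeq2, 2 by limma-voom, 3 with at least 10 counts in every library, 4 with covariates, 58 after subtracting a GC trend and 9 to 26 without single libraries. Genes with an adjusted exact permutation p under 0.05 for their part of the mitochondrial counts, numbered 13, and 0 without the 6 libraries. That comparison is no test, since the sets were chosen on the same counts and the 6 were removed for their make-up, and nothing is read from either number. Without the 6 the share difference between drinkers and controls was -0.779 points and that between cohorts 4.41 points. The causes were not tested.

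Of 2958 values of log2 fold changes or slopes of 69 genes under alternatives, 2924 kept their sign, 128 lost the threshold and 10 passed it only under an alternative. Most alternatives reuse the same libraries, many of them leaving out single ones, and many genes were named by their p in these data. Kept signs are therefore no independent support. Of 27 settings, the slope over the 22 libraries lost its call in 21 for CHMP2B, 20 for GPM6B, 19 for PFN1, 19 for TOB1, 17 for POMP, 16 for BNIP3L, 12 for IP6K1, 3 for KCNA6, 1 for COX6C (the covariates) and 0 for RWDD1. On the split by ND1 to ND3, the sign turned for PEA15 (-0.0037), NDUFA2 (0.020), NDUFA9 (0.088), SDHA (0.14), COX6B1 (0.047), SUPV3L1 (0.13), TIMM17B (-0.031), TIMM8B (0.090), FOXA2 (0.90), SST (0.71), SLC17A6 (0.30), SLC17A7 (-0.35) and TTR (-0.64). SDHD turned over 28 libraries (-0.0100), with covariates (-0.012), in cohort 1 (-0.010), in cohort 2 (-0.0062), in drinkers (-0.068) and with 7 libraries a set (-0.031). Cohort 1 turned SLC17A7 (-0.23) and TTR (-0.39), and cohort 2 SDHA (0.037), ATP5F1C (-0.17), MTERF2 (-0.065), FOXA2 (0.47) and SST (0.21). Drinkers alone turned UQCRH (0.090), ATP5F1C (-0.11), ADM (-0.015), HSPB1 (-0.020) and CLDN5 (-0.059). Leaving out the 6 turned SDHA (0.042), TIMM8B (0.0016) and FOXA2 (0.13). With 9 libraries a set, the median SE of a nuclear transcript was 0.27 on the log2 scale, which bounds the differences that could be called.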
